A study of Mus musculus with 6 samples.

Results

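IL-4 polarization without irradiation was measured in 2 of the 6 RNA-seq libraries of the study, M2 and M0, and the M2 library was compared with the M0 library. Both came from RAW264.7 cells, a macrophage-like line derived from a mouse tumour, although the labels also give bone marrow as the tissue. M0 macrophages received no polarizing agent. IL-4 at 20 ng/mL was given to the M2 macrophages over 24 h by the labels, while a legend of the study names a lower dose. In the same study LPS with IFN-γ made the M1 state. Cells of each state were also irradiated (10 Gy, gamma rays from caesium) and incubated for another 24 h, giving RM0, RM1 and RM2. Whether the M0 and M2 cells were also kept for those further 24 h was not stated. Each library was made from the pooled RNA of 5 wells, so a condition had 1 library and no difference between M2 and M0 had a replicate check. In such bulk RNA, fewer responding cells and less RNA per cell cannot be told apart.

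IL-4 is a type 2 cytokine that binds the IL-4 receptor α chain, paired with the common γ chain or with the IL-13 receptor α1 chain. JAK kinases at the receptor phosphorylate STAT6, which binds palindromic TTC and GAA elements and raises transcription of genes of alternative activation in macrophages, among them arginase 1, the mannose receptor, the resistin-like protein RELMα and chitinase-like proteins. Primary macrophages and macrophage lines differ in which of these genes they use.

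The counts summed to 18246280 in M0 and 17894937 in M2, and all 6 libraries lay between 17894937 and 18870516. Of the genes listed by the authors 9275 had 0 counts in both libraries. A gene was used when it had 10 or more counts in 1 of the 2 libraries, which left 11762 genes. Macrophage markers were abundant in both libraries, with 13 of 14 used, and Lyz2, lysozyme 2, had 469530 counts in M0 and 406315 in M2. Genes of the T cell receptor complex (Cd3d, Cd3e, Cd3g) had 0 counts in both, and 0 of 6 B cell markers were used.

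A gene was called higher or lower when its log2 ratio of M2 to M0, computed from counts scaled by TMM (a trimmed mean of the gene ratios between libraries) with a prior count of 2, reached 1 in size, which is 2-fold. Of the 11762 genes 169 were called, or 1.44%, with 117 higher (0.995%) and 52 lower (0.442%). Among the 12 higher genes whose interval lay farthest from 0 were the arginine genes Arg1 and Slc7a2, the IL-13 decoy receptor Il13ra2, the ubiquitin ligase Rnf19b, the small GTPase Arl4c and the growth factor Hbegf. They also held H2-T3, Entpd4, Ppia, Aqp1 and the pair Fam177a and 1700047I17Rik2. Among the 12 lower genes were the immune receptor Slamf7, the interferon-induced GTPase Gbp2 and Selenbp1. Most calls rested on few reads, Arg1 among them, since 87 of the 117 higher and 44 of the 52 lower genes had fewer than 50 counts in either library. Of the called genes 74.6% were protein-coding, against 94.3% of all genes used.

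**Figure D1:**
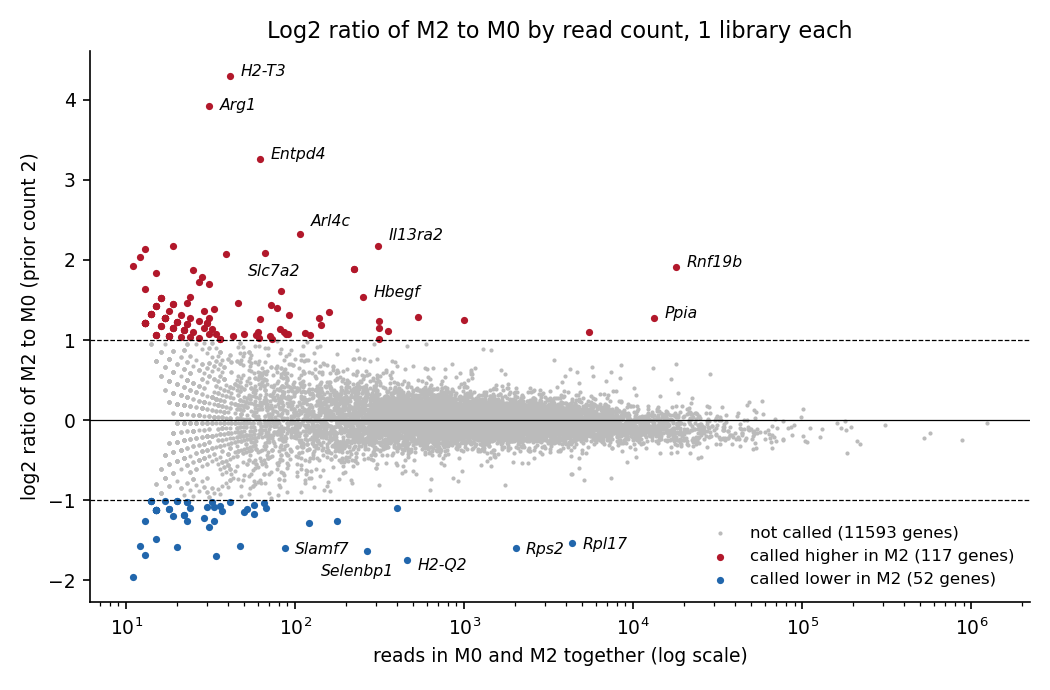
Log2 ratio of M2 to M0 for the 11762 genes used, against the reads in both libraries together on a log axis. Red points are the 117 genes called higher in M2, blue points the 52 called lower, and dashed lines mark 2-fold. Most coloured points lie at low read counts, while Rnf19b and Ppia lie far above the others at high read counts.

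The calls were set against what counting error alone gives. Had both libraries held every gene at the same scaled level, binomial counting would have given 66.9 calls, 32.6 higher and 34.3 lower, against the 169 counted. Among genes with 10 to 39 reads in the 2 libraries together, 114 of 752 were called and counting alone would give 62.3. Between 40 and 99 reads, 29 of 762 were called and counting would give 4.62. From 100 to 199 reads 8 of 710 were called, where counting would give 0.0587, and above that depth the expected number was under 0.001 while, from 200 reads on, 12 genes below 1000 reads and 6 genes at 1000 reads or more were called. Of the 169 calls, 114 had a 95% interval of the ratio that left out 0, and 55 did not. These exact Clopper-Pearson intervals cover counting error only, since PCR copies and wells add spread that they do not hold.

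**Figure D2:**
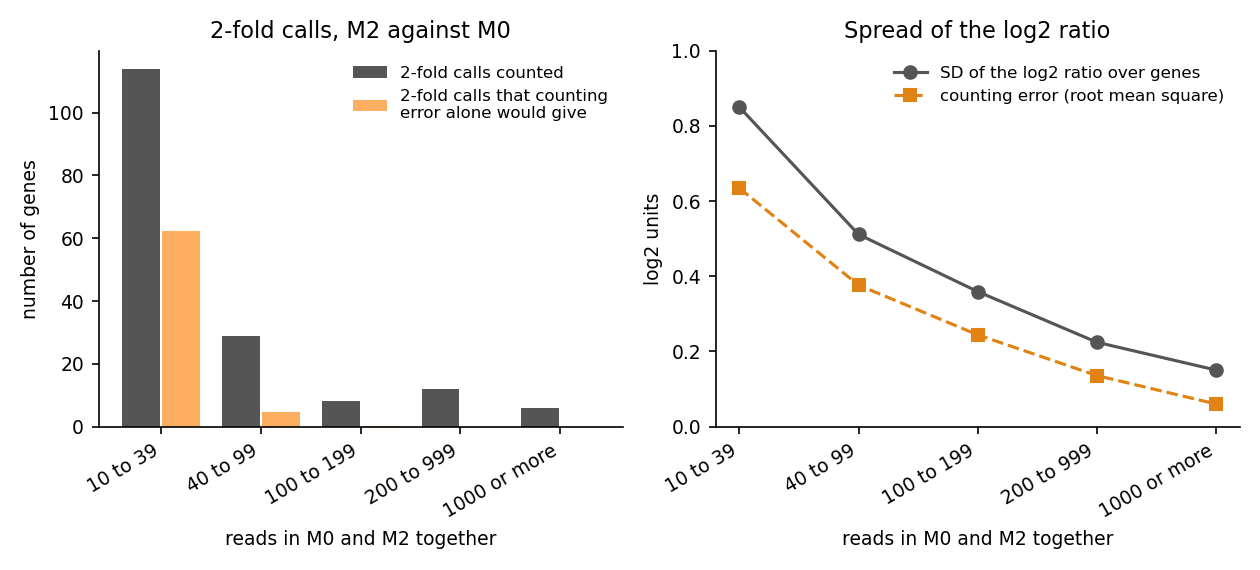
Left, number of genes called at 2-fold in M2 against M0 (grey) and the number that binomial counting error alone would give (orange), by reads in the 2 libraries together. Right, SD of the log2 ratio over genes (grey circles) and the root mean square counting error (orange squares) in the same bins. Of 752 genes with 10 to 39 reads 114 were called against 62.3 from counting, and the SD stayed above the counting error in every bin.

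The interval of the log2 ratio left out 0 for 3420 of the 11762 genes (29.1%), 1404 above and 2016 below. That split depended on the scaling, because with library totals in place of TMM 2608 lay above 0 and 1114 below. The interval lay wholly past 2-fold for 15 genes higher in M2 (0.128%) and 4 lower (0.034%). At 1000 reads or more the SD of the log2 ratio over genes was 0.150 and the counting error 0.0602, so the 2 libraries differed by more than counting in many genes, mostly by little. Over 2622 genes with at least 1000 counts in all 6 libraries, the SD estimated from the median absolute deviation was 0.126 for M2 to M0. On the same genes it was 0.494 for M1 to M0 and 0.132 for RM0 to M0, 2 comparisons that share the M0 library with it. It was 0.268 for RM2 to RM0, which shares no library with M2 and M0. These spreads have no replicate behind them and were not tested against each other.

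Among genes of arginine metabolism Arg1 and Slc7a2 were called higher. Arg1 (NM_007482, chromosome 10, 24915207 to 24927470 of GRCm38, the build called mm10), which splits arginine into ornithine and urea, had 0 counts in M0 and 31 in M2. Taking 3 counts as the limit for M0, it was at least 10.1-fold higher. The irradiated libraries had 2 counts of Arg1 in RM0 and 89 in RM2, so both IL-4 libraries lay above both libraries without IL-4. Slc7a2 (chromosome 8, 40862367 to 40922070), a cationic amino acid transporter that brings arginine into the cell, had 11 counts in M0 and 55 in M2, a log2 ratio of 2.08 (95% interval 1.33 to 3.37). It had 21 in RM0 and 192 in RM2, and again both IL-4 libraries lay above M0 and RM0. For this and later genes, how many of all genes show such an order was not counted. Choosing genes by their ratio of M2 to M0 also fixes part of that order. In M1 Slc7a2 had 165 counts and Arg1 had 5.

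Nos2, the inducible nitric oxide synthase that competes for the same arginine, had 14393 counts in M0 and 10749 in M2, a log2 ratio of -0.46 (-0.50 to -0.42). It had 22038 in RM0 and 14987 in RM2. The other members of the list of arginine and polyamine genes stayed close to equality. Odc1, ornithine decarboxylase and the entry to polyamine synthesis, had 155430 counts in M0 and 152831 in M2, a log2 ratio of -0.06. Arg2, the mitochondrial arginase, had 657 and 638 counts. Ass1, which rebuilds arginine from citrulline, had 53 and 41, a log2 ratio of -0.39 whose interval reached from -1.03 to 0.21. Over the 16 members used, 2 were called higher and 0 lower, where 0.995% and 0.442% of all genes used were. Of the 16 ratios 7 lay above 0 and 9 below, and the median was -0.06 against -0.01 over all genes used. With library totals the median of the list was 0.01. The remaining members ran from -0.13 for Slc3a2 to 0.10 for Azin1.

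Among receptors for IL-4 and IL-13 the decoy alone was called. Il13ra2 (NM_008356, chromosome X, 147383478 to 147403832), a receptor that binds IL-13 without the usual signalling chain, had 54 counts in M0 and 257 in M2, a log2 ratio of 2.17 (1.78 to 2.66). It had 41 in RM0 and 505 in RM2, a ratio of 3.53, and both IL-4 libraries were far above the others. Il4ra, the IL-4 receptor α chain, had 672 counts in M0 and 600 in M2, a log2 ratio of -0.20 (-0.36 to -0.04), and 800 and 546 in the irradiated pair. Il13ra1 had 934 and 825 counts, a ratio of -0.22 (-0.35 to -0.08). Il2rg, the common γ chain, had 2052 and 2162. Stat6 itself had 3630 counts in M0 and 3559 in M2, a ratio of -0.07. Among the kinases Jak2 had the largest ratio, with 1381 counts in M0 and 1824 in M2 (0.36, 0.26 to 0.47), and 1452 and 2161 in the irradiated pair. Jak1 (0.09), Jak3 (-0.19) and Tyk2 (-0.03) were nearer to 0. Ptpn6, the phosphatase SHP-1, was at -0.24 (-0.30 to -0.19), Ptpn11 at 0.01, Akt1 at -0.06 and Pik3r1 at 0.19. None of the 12 members used was called, and Irs1 and Irs2, the other 2 on the list, had 0 counts in both libraries.

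The list of feedback inhibitors of cytokine signalling had no call either. Cish, an SH2-domain inhibitor of JAK and STAT signalling, came closest with 97 counts in M0 and 195 in M2, a ratio of 0.95 (0.61 to 1.34), and 94 and 356 in the irradiated pair. Socs1 had 18 and 35 counts, a ratio of 0.85 (0.06 to 1.83), but 24 and 26 in the irradiated pair. Of the 12 members 9 had ratios above 0, 5 with intervals wholly above it (1404 of 11762 over all genes) and 0 wholly below, and the median was 0.18, or 0.11 with the GC trend removed. That share over all genes was not matched for depth. The members named here, in the fatty acid list and in the lists of interferon-stimulated, inflammatory, glycolytic, mitotic and lysosomal genes and of macrophage markers were picked after their values were seen.

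Of 30 genes listed for alternative activation, 29 were found, 10 had 0 counts in both libraries and 14 were used. Of the 14, 3 were called higher and 0 lower, where 0.995% and 0.442% of all genes used were. The 3 were Clec10a and, counted on the arginine list as well, Arg1 and Slc7a2. Clec10a (chromosome 11, 70166623 to 70170836), a lectin for galactose and N-acetylgalactosamine, had 42 counts in M0 and 101 in M2, a log2 ratio of 1.19 (0.70 to 1.78), and 51 and 128 in the irradiated pair. In M1 it had 7. Part of its transcript (4.08% of 100-base windows) is shared with Mgl2. Clec7a, the β-glucan receptor dectin-1, missed 2-fold with 444 and 847 counts, a ratio of 0.89 (0.73 to 1.06), and had 452 and 1526 in the irradiated pair. Flt1 was at 0.31 (0.13 to 0.49), Il1rn, the IL-1 receptor antagonist, at 0.13 (0.10 to 0.15), Il10 at 0.18 (-0.05 to 0.42) and Tgm2 at 0.01 (-0.17 to 0.19). Atp6v0d2, a proton pump subunit used in cell fusion, had 246 and 368 counts, then 251 and 428, while Vegfa had 3707 and 3702 and Matk 10 and 12.

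Several genes usually read as signs of the M2 state were at or near 0 in this line. Mrc1, the mannose receptor CD206, had 10 counts in M0 and 6 in M2, a ratio of -0.60 with an interval from -2.52 to 0.83, so that no difference was detectable at this depth. It had 5 in RM0, 12 in RM2 and 50 in M1. Retnla, which encodes RELMα, and Chil3, a chitinase-like protein, had 0 counts in M0, M2, RM0 and RM2, and a count of 0 allows up to 3 counts. Ccl22, a chemokine that attracts regulatory T cells, was at -0.42 (-0.57 to -0.26) with 767 counts in M0 and 590 in M2, but 802 and 827 in the irradiated pair. Tgfb1 was at -0.41 (-0.46 to -0.36), with 8166 and 6320 counts and 8038 and 6457 in the irradiated pair. Cd86, a costimulatory protein used as a sign of the M1 state, had 176 counts in M0 and 162 in M2, a ratio of -0.16 (-0.47 to 0.16).

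Among transcription factors tied to the IL-4 response, Egr2 was the only member of the list that was called. Over all genes used 0.995% were called higher. Egr2 had 101 counts in M0 and 212 in M2, a log2 ratio of 1.02 (0.68 to 1.39). In the irradiated pair it had 111 and 238, so both IL-4 libraries lay above both others. Nfil3 was at 0.24, Bcl6 at 0.20, Bhlhe40 at 0.13, Klf4 at 0.11, Myc at 0.07 and Cebpb at 0.02. Irf4, which in primary macrophages acts downstream of STAT6, had 39 counts in each library. Ppargc1b was at -0.55 (-0.90 to -0.22) but at 0.08 in the irradiated pair, Nr1h3 at -0.34 (-0.87 to 0.15), Rxra at -0.16 and Kdm6b at -0.10. The median of the 13 members used was 0.07, and 0.13 with library totals.

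Rnf19b and Ppia had the largest ratios at high counts. Rnf19b (NM_029219, chromosome 4, 129058271 to 129084526), a RING-type E3 ubiquitin ligase, had 3710 counts in M0 and 14303 in M2, a log2 ratio of 1.91 (1.86 to 1.96). It had 4648 in RM0, 22444 in RM2 and 8938 in M1. Ppia, cyclophilin A, had 3813 counts in M0 and 9498 in M2, a ratio of 1.28 (1.22 to 1.33), but 3677 in RM0 and 3999 in RM2, so M2 stood alone among the 4 libraries. Of the 100-base windows of Ppia 11.8% occur in other transcripts, and its count is uncertain for that reason.

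The other genes at the head of the higher calls had fewer reads. Arl4c (chromosome 1, 88698226 to 88702191), a GTPase of the ARF family, had 16 counts in M0, 91 in M2, 23 in RM0 and 176 in RM2. Its log2 ratio of M2 to M0 was 2.32 (1.69 to 3.34). Hbegf, a growth factor that binds the EGF receptor, had 62, 189, 56 and 382 counts in the same order, with a ratio of 1.54 (1.15 to 2.01). Aqp1, a water channel, had 6, 33, 9 and 42, with a ratio of 2.07 (1.15 to 3.97). In these 3 genes, chosen by their ratio of M2 to M0, both IL-4 libraries exceeded M0 and RM0. Over all genes used, 71.8% had the same sign in both pairs.

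H2-T3, a nonclassical class I gene, had 0 counts in M0 and 41 in M2, at least 13.3-fold higher against 3 counts, and 0 and 7 in the irradiated pair. In M1 it had 11. Entpd4, a nucleotidase of the Golgi, had 4 and 58 counts, a ratio of 3.26 (2.39 to 5.74), and 8 and 43 in the irradiated pair. All of its 100-base windows are shared with Entpd4b, so its reads could be split between the copies. Fam177a and 1700047I17Rik2 are listed with the same counts in all 6 libraries (45 in M0, 177 in M2, 90 in RM0 and 88 in RM2) and count as 1 measurement, with a ratio of 1.89 (1.46 to 2.44) that was -0.06 in the irradiated pair.

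**Figure D3:**
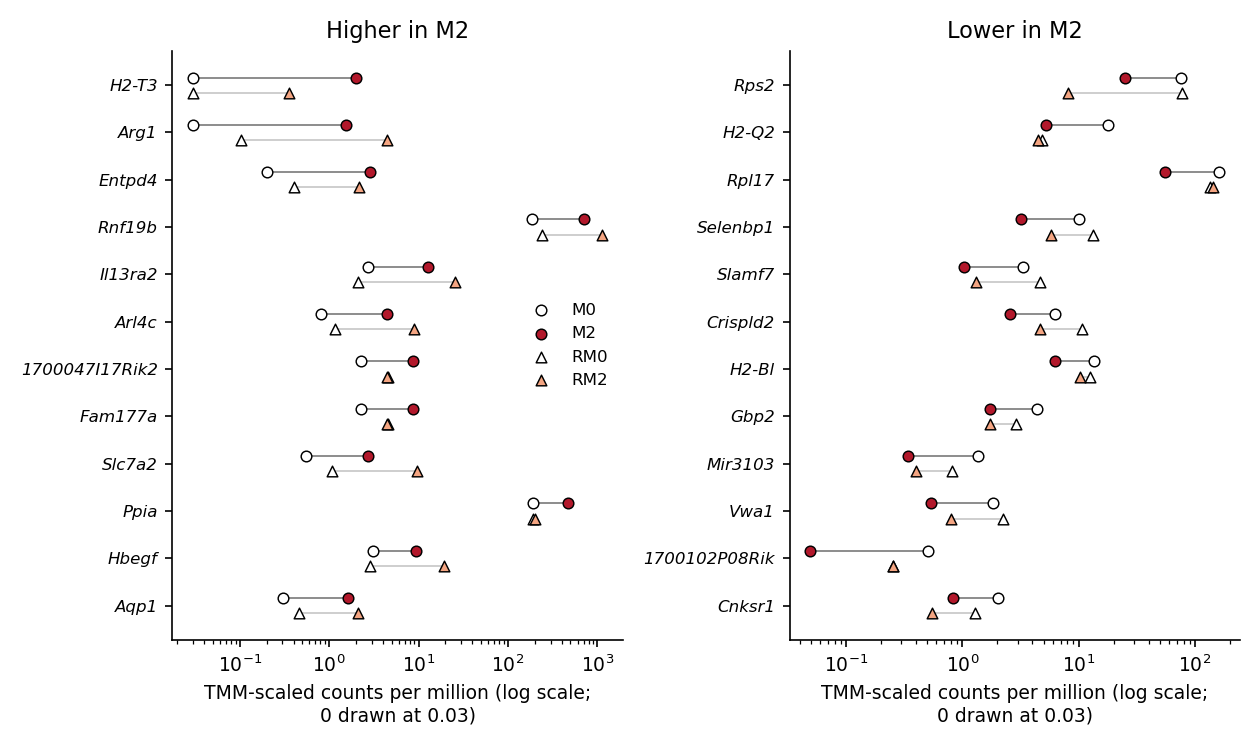
TMM-scaled CPM on a log axis for the 12 higher and the 12 lower genes whose interval bound lay farthest from 0. Circles are M0 (open) and M2 (filled), triangles RM0 (open) and RM2 (filled), lines join the 2 libraries of a pair, and counts of 0 are drawn at the left edge. Arg1, Il13ra2, Slc7a2 and Rnf19b shift the same way in both pairs, while Ppia, Rpl17 and H2-Q2 shift in M2 against M0 only.

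Among the lower genes, Slamf7 (chromosome 1, 171632403 to 171653037), a surface receptor of the SLAM family, had 66 counts in M0 and 21 in M2, a log2 ratio of -1.59 (-2.47 to -0.96), and 90 and 26 in the irradiated pair. Gbp2 had 86 and 35 counts, a ratio of -1.28 (-1.95 to -0.75), and 57 and 34 in the irradiated pair. Both were among genes abundant in M1, with 1473 counts of Slamf7 and 6032 of Gbp2. Selenbp1, a methanethiol oxidase, had 201 counts in M0 and 65 in M2, a ratio of -1.63 (-2.09 to -1.26), and 260 and 114 in the irradiated pair. Its sequence overlaps that of Selenbp2 in 21.3% of windows, and Selenbp2 had 22 and 10 counts.

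Crispld2, a secreted protein that binds lipopolysaccharide, had 124 counts in M0 and 52 in M2, a ratio of -1.26 (-1.79 to -0.81), and 210 and 92 in the irradiated pair. Vwa1, an extracellular matrix protein, had 36 and 11 counts, then 44 and 16. Cnksr1, a scaffold of RAS signalling, had 40 and 17, then 25 and 11. In these 3 genes, as in Slamf7 and Selenbp1, all chosen by their ratio of M2 to M0, both IL-4 libraries lay below M0 and RM0. The microRNA gene Mir3103 had 27 and 7 counts (16 and 8 in the irradiated pair) and 1700102P08Rik had 10 and 1, a difference that rests on few reads.

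Genes of multigene families made up the remaining lower calls with high counts. Rps2, a protein of the small ribosomal subunit, had 1503 counts in M0 and 511 in M2, a log2 ratio of -1.59 (-1.74 to -1.45), and 1515 and 161 in the irradiated pair. Rpl17, of the large subunit, had 3195 and 1131 counts (-1.53, -1.64 to -1.44), but 2629 and 2825 in the irradiated pair. Other transcripts hold 58.5% of the windows of Rps2 and 42.5% of those of Rpl17. H2-Q2, a class I gene, had 351 and 106 counts (-1.74, -2.09 to -1.45), with 94 and 89 in the irradiated pair. The class I pseudogene H2-Bl had 270 and 128 counts, then 242 and 202. For H2-Q2 the RM0 library was already at the level of M2, so the 2 libraries without IL-4 did not resemble each other. H2-Q2 shares 0 and H2-Bl 0.385% of its windows with other transcripts. How reads of Rps2 and Rpl17 were split between copies in counting was not tested.

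Further receptors, secreted proteins and enzymes lay outside the rule by which genes were named, and they were chosen after their values were seen. Il1rl1, the IL-33 receptor ST2, had 290 counts in M0 and 711 in M2, a log2 ratio of 1.25 (1.06 to 1.46), and 324 and 1038 in the irradiated pair. Adc, which encodes the polyamine regulator antizyme inhibitor 2, had 152 counts in M0 and 383 in M2, a log2 ratio of 1.28 (1.02 to 1.58), and 167 and 451 in the irradiated pair. Tlr8, an endosomal receptor for RNA, had 19 and 64 counts (1.61, 0.96 to 2.54), then 32 and 119. Gpr183, an oxysterol receptor, had 109 and 244 counts, then 117 and 250. Igf1 had 18 and 42, then 7 and 122. Mmp12, the macrophage elastase, had 8 and 22, then 5 and 25. Il4i1, an amino acid oxidase named for its induction by IL-4, had 6 and 16, with an interval of the log2 ratio from -0.05 to 3.02, then 11 and 27. In each of these 7 genes M2 exceeded M0 and RM2 exceeded RM0.

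The irradiated pair shares no library with M2 and M0 and holds the same IL-4 treatment followed by irradiation. Of the 117 genes called higher, 91 had 10 or more counts in RM0 or RM2, 68 of them (74.7%) had a ratio of the same sign there, 36 were called the same way and 4 the opposite way. Of the 52 called lower, 37 could be looked at, 32 (86.5%) had the same sign, 12 were called the same way and 0 the opposite way. Over all genes used, 71.8% had the same sign in both pairs, a background near the share of the higher genes. In RM2 against RM0 2.6% of genes were called, 1.63% higher and 0.97% lower. With 50 or more counts in M0 or M2, 24 of 30 higher genes and 7 of 8 lower genes had the same sign, and 18 and 4 were called. For the genes whose interval lay wholly past 2-fold, 15 of the 18 with enough counts had the same sign and 13 were called. Among all genes whose interval left out 0, 3408 had enough counts and 90.0% of them had the same sign. The called genes therefore did not share their sign more often than other genes that differed by more than counting. The median ratio of the 30 higher genes was 1.28 in M2 to M0 and 1.21 in RM2 to RM0. For the 87 higher genes under 50 counts it was 1.22 and 0.54, the second over the 61 of them that had 10 counts in the irradiated pair.

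**Figure D4:**
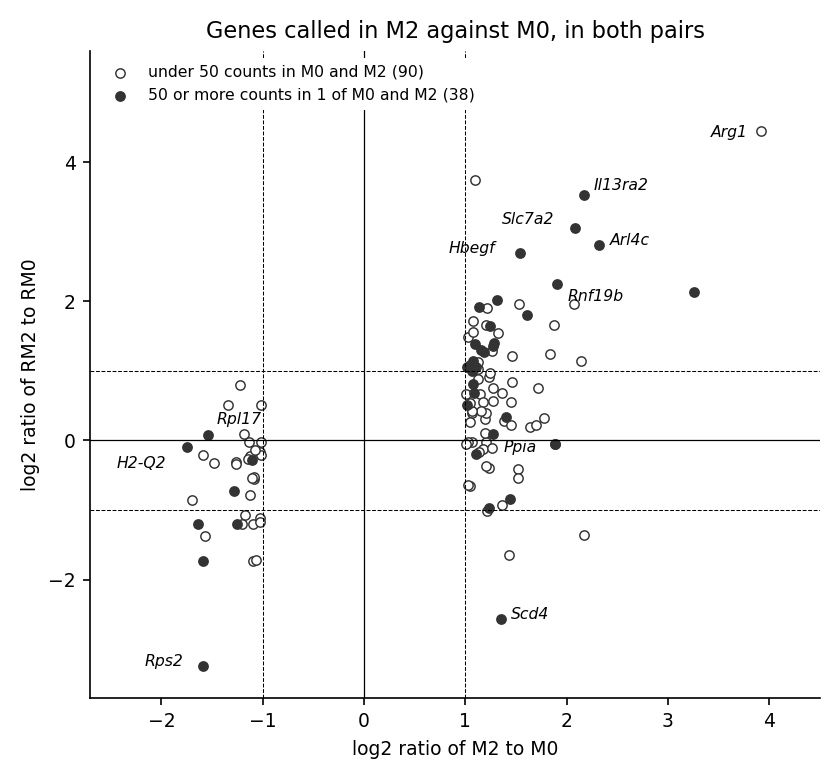
Log2 ratio of RM2 to RM0 against log2 ratio of M2 to M0 for genes called in M2 against M0 with 10 or more counts in the irradiated pair. Filled points had 50 or more counts in M0 or M2, open points fewer, and dashed lines mark 2-fold. Arg1, Il13ra2, Arl4c and Slc7a2 are high in both pairs, Ppia is near 0 in the irradiated pair, and Scd4 lies on opposite sides.

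Across genes the 2 pairs went together more closely at greater depth. Spearman's rho between the ratios was 0.55 over 11255 genes with 10 or more counts in the 4 libraries, 0.65 over 9224 with 100 or more and 0.74 over 3387 with 1000 or more. Genes are not independent replicates, and both sets of ratios followed GC content, with a rho of -0.35 for M2 to M0 and -0.62 for RM2 to RM0 over 11684 genes. With the GC trend taken out of both, rho over 3379 genes with 1000 or more counts was 0.65, against 0.75 before on the same genes.

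A single fit to the 4 libraries tested IL-4 with irradiation as a second term, with the irradiated pair standing in for a replicate. It assumes the same effect of IL-4 in both pairs and has 1 residual degree of freedom, so its p-values lean on a spread borrowed across genes. By edgeR's quasi-likelihood test with Benjamini-Hochberg adjustment at 0.05, 791 of 11667 genes rose (6.78%) and 550 fell (4.71%), with a median size of 0.40 on the log2 scale. The size of this set was not stable. Without the irradiation term 24 genes rose and 6 fell, and with all 6 libraries in the fit 17 rose and 3 fell. By DESeq2's Wald test 71 rose and 97 fell. That test gave no adjusted p to genes of lower mean count, Myc and Il13ra2 among them, so its numbers cover fewer genes. Leaving out 1 library at a time from the fit to 6, 154 rose and 89 fell without M0, 31 and 16 without M2, 12 and 6 without RM0 and 11 and 7 without RM2. Of the 128 genes called in M2 against M0 that were tested, 60 passed in the same direction, 46 of 91 higher and 14 of 37 lower. The fit holds M0 and M2 themselves, so this overlap with the calls was partly built in.

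In the fit to 4 libraries and its alternatives 8 genes passed in each of the 11 settings that gave them an adjusted p. All 8 were higher with IL-4 and were among the 2-fold calls of M2 against M0, which come from libraries that the fits reuse. For Rnf19b the effect was 2.09 ± 0.10 (SE) with an adjusted p of 1.57e-94, and the largest adjusted p over the 11 settings was 0.00249. Il13ra2 (2.93 ± 0.18, largest adjusted p 0.0104), Hbegf (2.21 ± 0.18, 0.0450), Il1rl1 (1.47 ± 0.12, 0.0140), Arl4c (2.74 ± 0.25, 0.0194) and Adc (1.36 ± 0.14, 0.0238) passed in 10 of 10. Arg1 (5.73 ± 0.55, 0.0248) passed in 7 of 7, where the low counts of M0 and RM0 make the size uncertain. Only M2 (31 counts) and RM2 (89) brought Arg1 past the minimum of 10 counts in 2 libraries. The fits without M2, without RM2 and with a minimum of 50 counts therefore could not test Arg1. DESeq2 gave no adjusted p to Arg1, nor to the genes given here with 10 settings, such as Il13ra2, Hbegf, Il1rl1, Arl4c and Adc. Clec7a (1.34 ± 0.11) passed in 9 of 10 with a largest adjusted p of 0.102, Slc7a2 (2.88 ± 0.27) in 8 of 10 and Egr2 (1.07 ± 0.16) in 6 of 10. Of the lower genes Rps2 passed in 9 of 10, and Slamf7 and Selenbp1 each in 8 of 10. Rps2 was also low in RM1, which had no IL-4, at 23.8 TMM-scaled CPM. It was at 25.2 in M2, 77.7 in RM0 and 131.5 in M1.

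Outside the IL-4 pathway, gene lists without a single call still leaned to one side. Of 18 genes of glycolysis and hypoxia, 14 had ratios below 0, 13 had intervals wholly below it (2016 of 11762 over all genes) and 0 wholly above, and the median was -0.24. The share over all genes, given here and for other lists, was not matched for depth. Intervals left out 0, on either side, in 7.85% of genes under 40 reads in M0 and M2 together. At 1000 reads or more they did so in 41.9%. How much of the excess in a list goes with its depth was not tested. Aldoa (-0.28), Pgk1 (-0.24), Eno1 (-0.35) and Pkm (-0.30), enzymes of glycolysis, had between 23827 and 100582 counts in M2. Adm, adrenomedullin, had 199 and 116 counts, a ratio of -0.81 (-1.16 to -0.48), then 241 and 117 in the irradiated pair. In the fit to 4 libraries 10 of the 18 fell and 0 rose, where 4.71% of all genes fell. Vegfa, a hypoxia target, was at -0.04 and Hif1a at 0.03. The median of this list was -0.17 with library totals and -0.20 with the GC trend removed.

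Of 20 mitosis genes, 16 had ratios above 0, 10 had intervals wholly above it (1404 of 11762 over all genes) and 0 wholly below, and the median was 0.23. That median was 0.29 with library totals and 0.17 with the GC trend removed. Ccnb1, cyclin B1, had 249 counts in M0 and 404 in M2, a ratio of 0.66 (0.43 to 0.89), and 162 and 210 in the irradiated pair. Cenpf had 63 and 105 counts (0.68, 0.23 to 1.17), then 35 and 60. Plk1 and Aurka, kinases of mitotic entry, were at -0.12 and -0.01. In the fit to 4 libraries 6 rose and 0 fell, where 6.78% of all genes rose. The list of 20 DNA replication genes had a median of 0.01, with 3 intervals above 0 and 1 below (1404 and 2016 of 11762 over all genes).

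Interferon-stimulated genes had a median of -0.17 over 19 used, with 16 ratios below 0, 10 intervals wholly below (2016 of 11762 over all genes) and 1 wholly above. The median was -0.11 with library totals and -0.14 with the GC trend removed. Irf7, a master regulator of type I interferon, had 5965 counts in M0 and 4470 in M2 (-0.45, -0.51 to -0.40), and 6777 and 3050 in the irradiated pair. Bst2, tetherin, was at -0.34 (-0.42 to -0.26). Rsad2, viperin, was at 0.12 (0.0042 to 0.25), and Ifit1, Ifit2 and Ifit3 had intervals that held 0. In the fit to 4 libraries 7 fell and 0 rose, where 4.71% of all genes fell.

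The list of inflammatory activation genes was split, with a median of -0.04 that turned to 0.03 with library totals. Among 18 used, 4 intervals lay wholly above 0 and 7 below (1404 and 2016 of 11762 over all genes). Il1b had 2638 counts in M0 and 1700 in M2, a ratio of -0.67 (-0.76 to -0.58), and 4136 and 2601 in the irradiated pair. Tnf was at -0.41 (-0.46 to -0.37). Il6, with 97 and 138 counts, was at 0.46 (0.09 to 0.86), and Ptgs2, cyclooxygenase-2, at 0.14 (0.12 to 0.16). In the fit to 4 libraries 3 of these genes rose and 4 fell, where 6.78% and 4.71% of all genes did.

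Fatty acid oxidation, which alternatively activated macrophages are known to use, showed no call among 19 genes, and the median was -0.09. Cd36, a scavenger receptor that takes up fatty acids, was the member farthest above 0, with 6717 counts in M0 and 11165 in M2 (0.69, 0.65 to 0.74), and 8825 and 19929 in the irradiated pair. The enzymes Cpt1a (-0.07), Acadm (-0.01), Hadha (-0.10) and Hadhb (-0.04) lay near 0. Of 8 MHC class II and costimulation genes 1 was called lower, where 0.442% of all genes used were. It was H2-Ab1, with 23 and 8 counts and 7 and 11 in the irradiated pair, and the list median was -0.11. Lysosome genes had a median of -0.11, and -0.04 with library totals. Of their 16 intervals 10 lay below 0 and 2 above (2016 and 1404 of 11762 over all genes). With library totals the fatty acid list was at -0.03, the MHC list at -0.05, the cholesterol list at -0.02 and the NRF2, DNA replication and MAP kinase lists between 0.07 and 0.08. Cholesterol synthesis genes had a median of -0.09, osteoclast genes -0.04, unfolded protein and ATF4 stress genes -0.03, NRF2 genes 0.00 and MAP kinase feedback and immediate early genes 0.01, with no call in any of them. Removing the GC trend turned the sign of the medians of the IL-4 receptor list to 0.02, of the NRF2 list to -0.06 and of the unfolded protein list to 0.00, and with library totals the IL-4 receptor, osteoclast and unfolded protein lists were at 0.02, 0.03 and 0.03.

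**Figure D5:**
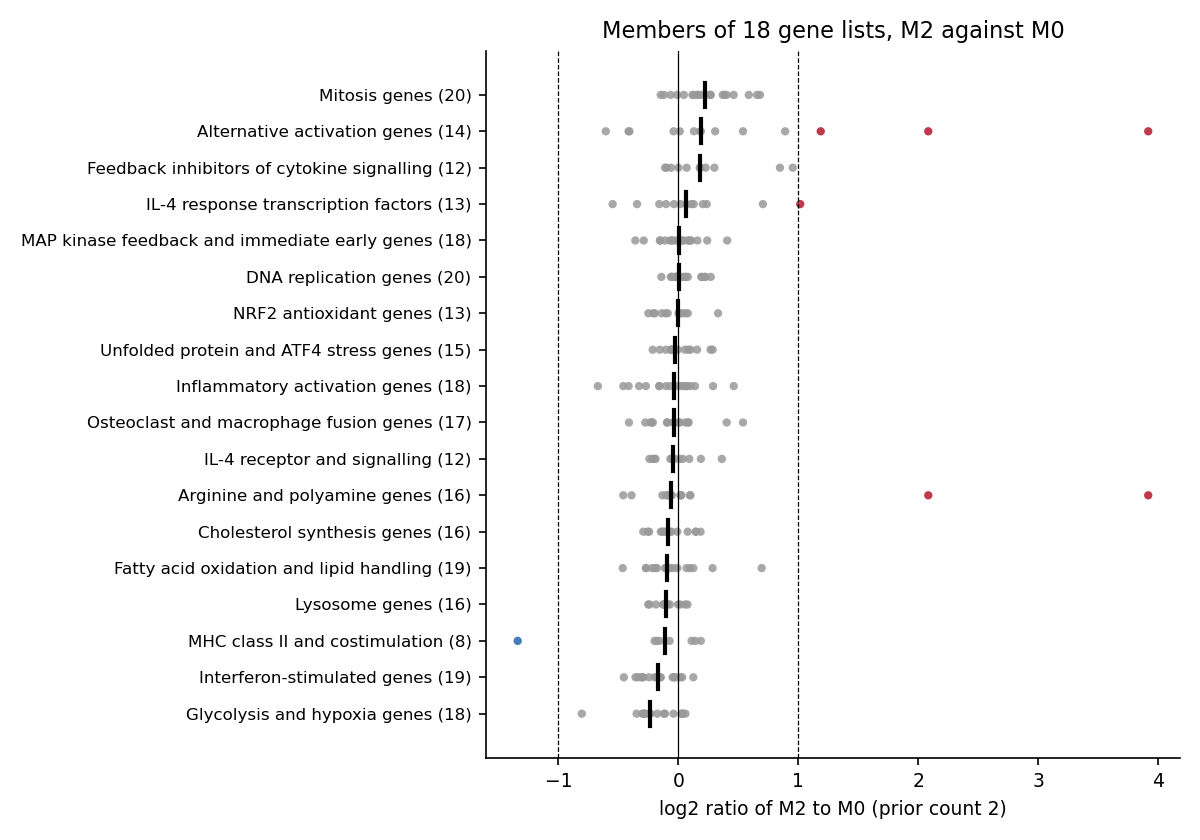
Log2 ratio of M2 to M0 for the used members of 18 gene lists, 1 point a gene, with the number used in brackets and the median as a black bar. Red points were called higher and blue points lower, and dashed lines mark 2-fold. Apart from Arg1, Slc7a2, Clec10a, Egr2 and H2-Ab1 the members lie inside 2-fold, with the mitosis list at a median of 0.23 and the glycolysis and hypoxia list at -0.24.

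Markers of macrophages had a median of -0.17 over the 13 used (-0.11 with library totals). Of their intervals 9 lay below 0 and 2 above (2016 and 1404 of 11762 over all genes). Their summed level went from 30840 to 26230 TMM-scaled CPM, most of it Lyz2. Tlr4 was at 0.38 (0.27 to 0.49), while Cx3cr1, the fractalkine receptor, was at -0.72 (-0.93 to -0.52) with 526 and 327 counts. Of 8 neutrophil markers 7 were found and S100a8 alone was used, with 4580 counts in M0 and 2846 in M2, and their summed level was 232.0 in M0 and 140.4 in M2. The defining markers Elane, Ltf and Cxcr2 had 0 counts in both libraries. Dendritic cell markers had 2 used of 6, of which Ccr7 was called lower with 39 and 18 counts, and their summed level was 3.08 in M0 and 2.66 in M2. Epithelial and endothelial markers had 2 used of 8, of which Pecam1 was called higher with 11 and 35 counts, while Epcam and 3 keratin genes had 0. Fibroblast markers had 2 used of 7, with summed levels of 6.57 and 7.04, and T cell markers 1 of 8, with 12.3 and 11.2.

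Promoters of called genes were searched for the letters that STAT6 is known to prefer, TTC and GAA with 4 bases of any kind between them, and for the spacing of 3 bases that other STAT proteins bind, on both strands of the 250 bases before each start site listed by RefSeq for GRCm38.p6. Both patterns are their own reverse complement. The spacing of 4 was found in 5.85% of all 32851 promoters. By gene, it was found in 6.76% of the 27025 genes with a promoter, in 5.68% of the 8842 genes used that had one, in 6 of 71 genes called higher (8.45%) and in 0 of 38 called lower. The spacing of 3 was found in 7.02% of promoters, in 8.13% of genes, in 7.16% of genes used, in 7 of 71 higher (9.86%) and in 2 of 38 lower. None of the 6 genes among the leading higher calls, and none of the 8 among the leading lower calls, that had a listed promoter held either. The 2 promoters below are shown because one belongs to a gene called higher that held both patterns, and the other to a known STAT6 target that held the longer one and had no reads here. Matches are in capitals, and the last base lies directly before the start site. That of Tlr8 covers chrX:167264330-167264579 on the minus strand and that of Retnla chr16:48842359-48842608 on the plus strand.
Tlr8: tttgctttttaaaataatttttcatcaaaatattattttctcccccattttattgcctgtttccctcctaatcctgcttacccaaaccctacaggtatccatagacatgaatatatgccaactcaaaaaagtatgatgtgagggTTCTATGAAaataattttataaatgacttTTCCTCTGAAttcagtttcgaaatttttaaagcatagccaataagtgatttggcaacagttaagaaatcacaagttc
Retnla: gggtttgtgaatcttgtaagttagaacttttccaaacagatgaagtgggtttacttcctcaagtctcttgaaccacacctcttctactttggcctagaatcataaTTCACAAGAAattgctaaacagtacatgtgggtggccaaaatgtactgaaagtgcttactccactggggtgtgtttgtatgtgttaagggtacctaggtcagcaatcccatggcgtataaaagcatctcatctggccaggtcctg
In Tlr8, with 19 counts in M0 and 64 in M2, TTCTATGAA starts 106 bases and TTCCTCTGAA 77 bases before the start site. In Retnla, with 0 counts in both libraries, TTCACAAGAA starts 145 bases before it. The promoter of Cish held neither pattern within these 250 bases. A match is a string of letters and not a measured site.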

How the data were processed

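Total RNA of RAW264.7 cells was sequenced in 6 libraries, 1 per condition, each from the pooled RNA of 5 wells. Per the submitters' processing notes, reads passed through Trimmomatic 0.36, HISAT2 2.2.1 and HTSeq 0.11.3 with the mouse build mm10. The strand setting and the handling of reads with several matches were not given in the sources used here. The authors deposited whole-number counts per gene, not normalized. Symbols that a spreadsheet had turned into dates were restored for 27 genes.

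Groups came from the labels. Counts were scaled by TMM in edgeR 4.0.16 over the 6 libraries, with a prior count of 2 for ratios, and exact Clopper-Pearson intervals at 95% were taken from the split of a gene's reads between M0 and M2. They cover counting error only. With 1 library per condition no p-value was given for M2 against M0. The fit to M0, M2, RM0 and RM2 used edgeR's quasi-likelihood test with Benjamini-Hochberg adjustment; DESeq2 1.42.0 was an alternative. The libraries may share day and culture, so p-values measure only the spread between these libraries.

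Genes were named when among the 12 higher or 12 lower calls whose interval bound lay farthest from 0, when called in a gene list, or when used members of the lists of IL-4 receptor, alternative activation, IL-4 transcription factor and arginine genes. The members and lists were chosen with earlier results of these data known. Gene GC content and shared 100-base windows came from GENCODE M21 transcripts, promoters from RefSeq (GRCm38.p6). Some genes that the rule names are not reported here.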

Additional observations from a re-analysis of the deposited data

Results flagged for a closer look

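In 4 genes the ratio of M2 to M0 and the ratio of RM2 to RM0 both passed 2-fold in opposite directions, with 1 library on each side, and the difference between the pairs was not tested. Scd4, a stearoyl-CoA desaturase, had 43 counts in M0 and 116 in M2, a log2 ratio of 1.35, but 179 in RM0 and 29 in RM2, a ratio of -2.57. The other 3 rested on 22 counts or fewer in every library of the 2 pairs. Ccdc38 was at 2.18 (2 and 17 counts) and -1.37 (16 and 5). Clvs1 was at 1.22 (8 and 22) and -1.01 (18 and 8). Doc2a was at 1.43 (3 and 12) and -1.65 (20 and 5).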

How the results depend on the processing

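The 117 higher and 52 lower 2-fold calls became 30 and 8 with a minimum of 50 counts, 281 and 152 with a minimum of 1 count, 366 and 210 at 1.5-fold and 10 and 0 at 4-fold. With an exact test and an assumed coefficient of variation of 0.1 there were 25 and 8, and with 0.4 there were 0 and 0, where 15 genes had an unadjusted p under 0.05. With no filter beyond 1 count and a prior count of 0.25, an alternative chosen after seeing the data, there were 1134 and 871. Library totals in place of TMM shifted the median ratio by 0.07 and gave 134 and 41. List members called were 5, and 3 with the minimum of 50 counts. The fit to 4 libraries gave 791 higher and 550 lower genes, 24 and 6 without the irradiation term, 17 and 3 with all 6 libraries, 445 and 313 with a minimum of 1 count and 71 and 97 by DESeq2. With all 6 libraries less 1 in turn the counts ran from 11 to 154 higher and from 6 to 89 lower, where a condition left with 1 library is assumed to vary like the others. Of the 61 values under alternatives that answer a comparison, 31 moved and 30 did not. A number of genes called has no sign that could reverse, but the balance of directions did change. With library totals 2608 intervals lay above 0 and 1114 below, against 1404 and 2016 with TMM. By DESeq2 more genes fell than rose, while in the fit to 4 libraries more rose than fell. DESeq2 gave an adjusted p only to genes of higher mean count, so these counts cover unlike sets of genes. The cause of these shifts was not tested. No paired analysis was possible because each condition had 1 library, with no replicate to pair within it, and the irradiation term of the fit to 4 libraries is the nearest to a block. Depth limits genes under 40 reads in M0 and M2 together, where counting alone would give 62.3 of 114 calls.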
